A study of Mus musculus with 8 samples.

Results

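The extracellular matrix proteases of the lung were compared between mice with stabilized beta-catenin and mice with beta-catenin knocked out. The group comprised the matrix metalloproteinases (MMPs), the ADAMTS proteases, the ADAMTS-like proteins and the tissue inhibitors of metalloproteinases (TIMPs). Its members were taken by gene symbol, as every gene named Mmp, Adamts, Adamtsl or Timp with a number that had a single annotated symbol on the array. This gave 49 of 19937 genes, namely 22 MMPs, 18 ADAMTS proteases, 5 ADAMTS-like genes and 4 TIMPs. The symbols alone set the membership, although this gene family was picked for study with earlier results of these data known. Where a gene had several probe sets, the one that was brightest on average across the 8 arrays stood for it. Mmp15 and Adamts2 were not analysed here.

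Total RNA of whole, untreated lungs was hybridised to 1 Affymetrix expression array per mouse. The 4 mice of the first group carried the stabilized form of beta-catenin, and the 4 mice of the other group carried the beta-catenin knockout. All were at postnatal day 21 and recorded as male. The labels give neither the promoter that drove the recombination nor the cells in which either allele was active, and unmodified lungs were not analysed here, so a difference does not say which group departed from a normal lung. Values are log2 expression after RMA, and differences are stabilized minus knockout. A gene was called when its limma p-value, adjusted by the Benjamini-Hochberg method over all 19937 genes, was under 0.05. Nothing in the labels beyond the words biological replicate says how the mice were bred or housed.

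Ctnnb1, which encodes beta-catenin, averaged 11.07 ± 0.08 in stabilized lungs and 10.98 ± 0.04 in knockout lungs (SD, n = 4 each), and it was not called, so its level does not check the labels. Axin2, a direct target of beta-catenin, averaged 7.26 ± 0.07 in stabilized lungs and 7.20 ± 0.12 in knockout lungs (SD), a difference of 0.06 ± 0.07 (SE) that was not called either (limma adjusted p = 0.67). Xist, the RNA of the inactive X chromosome in females, lay at 10.59 and 10.36 in stabilized replicates 1 and 4 and at 10.55 and 10.42 in knockout replicates 1 and 3, and below 5 in the other arrays. The recorded sex was thus not matched by 2 arrays of each group, and the fits were repeated with Xist as a covariate. Airway and lymphocyte markers were lower in stabilized lungs, with 9 of 10 club cell, 9 of 10 ciliated cell, 9 of 9 B cell and 9 of 10 T and NK cell markers called lower. In RNA of a whole organ, fewer cells of a type and less RNA per cell cannot be told apart.

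MMPs are zinc-dependent endopeptidases that are secreted or membrane-bound as inactive zymogens and cleave collagens, elastin, laminins and many signalling proteins. ADAMTS proteases share a related catalytic domain followed by thrombospondin repeats, and they cut proteoglycans such as versican and aggrecan, process procollagens or act on microfibrils. ADAMTS-like proteins keep the thrombospondin repeats but lack the protease domain, and several bind fibrillin microfibrils. TIMPs bind the active site of MMPs and of some ADAM and ADAMTS proteases. In the lung these genes take part in the shaping of alveolar walls and in the turnover of elastin. Mmp7 is a known target of beta-catenin and TCF factors in intestinal tumours.

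A run of 10 MMP genes lies on chromosome 9, and it includes the 3 members with the widest measured differences. Along the chromosome their order is Mmp13, Mmp12, Mmp1b, Mmp3, Mmp1a, Mmp10, Mmp8, Mmp27, Mmp20 and Mmp7, with no other protein-coding gene between them in the RefSeq annotation. Of these 10, Mmp12 and Mmp8 rose, Mmp3 fell and 7 were not called. All but Mmp12 and Mmp3 had means under 5 on the log2 scale, where a change could be missed. The 250 bases before the annotated starts of these 3 called neighbours are shown to set their promoters beside their opposite differences (RefSeq, GRCm38.p6, all on the plus strand). They lie at chr9:7347124-7347373 for Mmp12, the downstream one of 2 annotated starts, at chr9:7445572-7445821 for Mmp3 and at chr9:7558179-7558428 for Mmp8. Capitals mark the AP-1 motif, searched as TGANTCA with any base at N, a loose form of the binding site of Fos and Jun factors.
Mmp12: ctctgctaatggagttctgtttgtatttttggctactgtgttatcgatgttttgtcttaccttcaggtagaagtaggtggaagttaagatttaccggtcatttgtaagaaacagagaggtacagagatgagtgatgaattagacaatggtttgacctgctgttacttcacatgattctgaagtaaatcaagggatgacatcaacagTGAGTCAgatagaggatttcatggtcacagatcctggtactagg
Mmp3: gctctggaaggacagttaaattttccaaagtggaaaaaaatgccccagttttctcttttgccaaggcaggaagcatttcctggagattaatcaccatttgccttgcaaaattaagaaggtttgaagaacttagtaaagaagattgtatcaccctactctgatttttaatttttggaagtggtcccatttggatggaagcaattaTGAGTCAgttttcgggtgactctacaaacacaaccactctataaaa
Mmp8: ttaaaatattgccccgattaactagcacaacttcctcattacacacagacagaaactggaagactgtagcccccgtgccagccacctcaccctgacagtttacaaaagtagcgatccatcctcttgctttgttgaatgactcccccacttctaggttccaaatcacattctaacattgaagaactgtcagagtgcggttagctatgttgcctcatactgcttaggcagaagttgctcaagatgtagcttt

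The AP-1 motif was present in the promoters of both Mmp12, which rose, and Mmp3, which fell, with its first base at -44 and -46 from the annotated start. The Mmp8 window and the window of the other Mmp12 start held no match. RefSeq promoters were found for 34 of the 49 members, in 37 windows of 250 bases. AP-1 matched 8 of these 37 windows (21.6%), against 6.75% of all 32851 windows, searched on both strands. All 8 matches fell in genes of the chromosome 9 group, which had 8 of 10 genes with the motif, against 0 of the 24 other members with a promoter. The match of Mmp20 read TGAATCA, and the others read TGAGTCA or TGACTCA. Of these 8 genes 1 was called higher, 1 was called lower and 6, all with means under 5, were not called. The TCF/LEF motif was searched as CTTTGAT and as CTTTGAA on both strands. The last bases of either form can overlap an AP-1 match. CTTTGAT matched 1 of the 37 windows (2.70%), a second annotated start of Mmp7, against 3.21% of all windows. CTTTGAA matched 1, in Mmp21, against 4.46% of all windows. The Mmp7 window with the match begins at chr9:7692091, just past the window of the other Mmp7 start, which ends at chr9:7692089. That match thus lies downstream of the other annotated start, not before it. None of the 9 called members with a promoter window held either form, which says only that these letters are not there, and the other 5 called members had no window to search.

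Across the members, 14 of 49 (28.6%) were called, against 9.62% of all genes. Of these, 12 rose and 2 fell, where 4.65% of all genes were called higher and 4.96% lower. After centring each array on its median, 15 members rose and 2 fell, and the share of calls that were higher among all genes became 64.4%, against 48.4% without centring. The median difference of the members was 0.05, against -0.01 over all genes, and 33 members had a positive difference. The groups did not overlap in 13 members, 11 with the stabilized lungs higher and 2 with them lower, against 16.9% of all genes (9.06% higher and 7.82% lower). Of the 49, 11 had a mean under 5 on the log2 scale, where background compresses differences, and Mmp8 was the only called member among them.

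**Figure D1:**
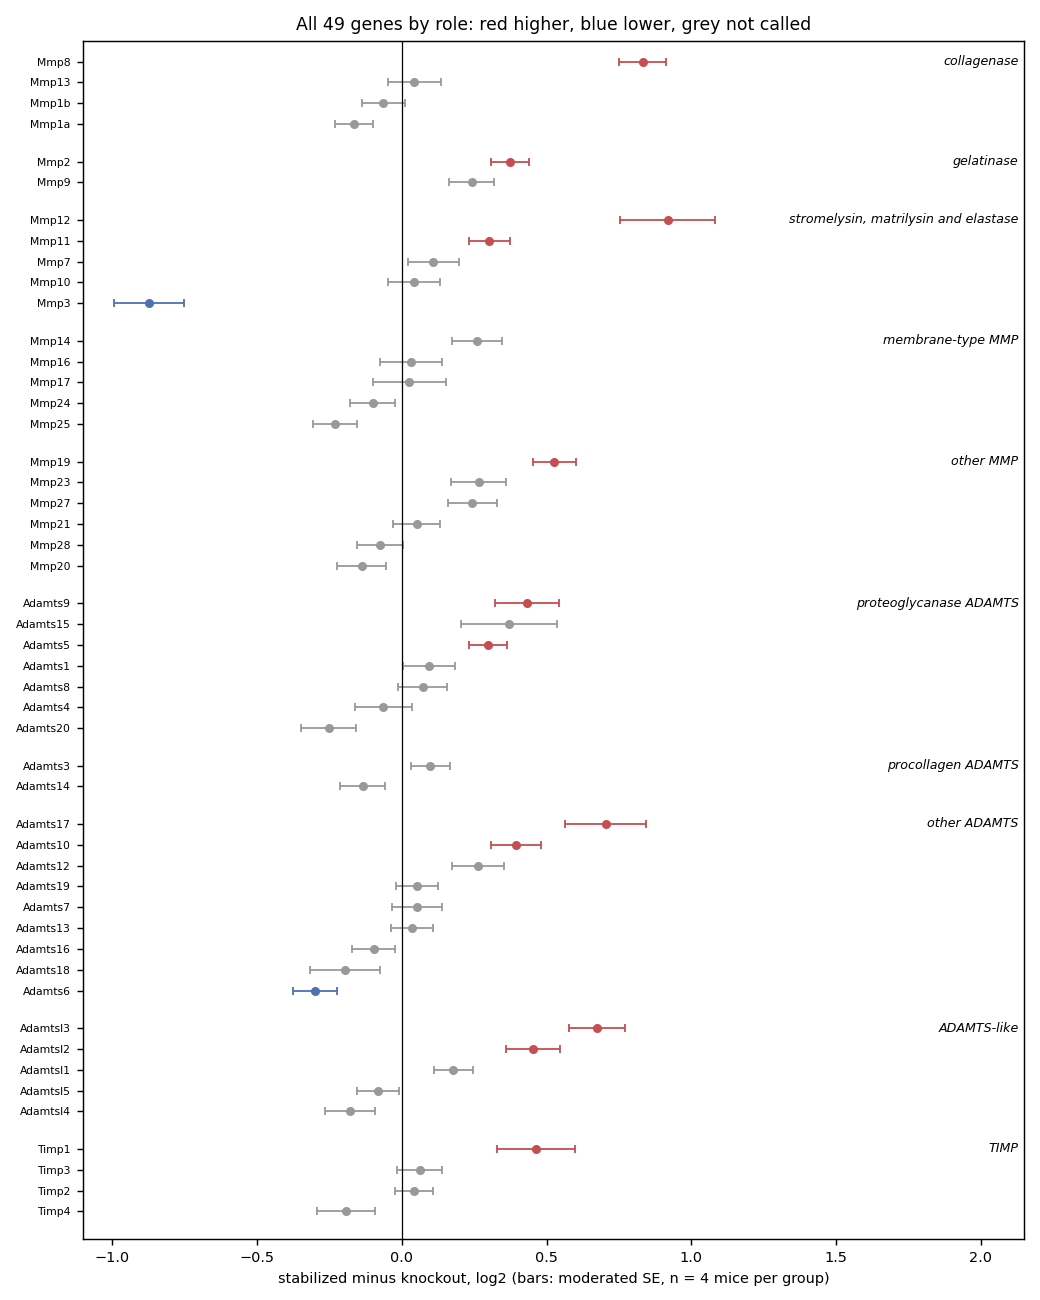
Difference in log2 expression, stabilized minus knockout, for all 49 genes grouped by role, with moderated standard errors (n = 4 mice per group). The 12 red points are called higher, the 2 blue points called lower, and the 35 grey points lie between -0.25 and 0.37.

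Among the collagenases, Mmp8 rose and 3 others were not called. Mmp8, the collagenase stored in neutrophil granules, lay at 5.30, 5.36, 5.36 and 5.06 in stabilized replicates 1 to 4, against 4.43, 4.38, 4.39 and 4.56 in knockout replicates 1 to 4. All stabilized lungs were above all knockout lungs. The difference was 0.83 ± 0.08 (SE), or 1.78-fold higher, with a limma adjusted p = 4.1e-05. The mean of Mmp8 lay under 5, where background compresses differences, so this fold may understate the change, and the gene was not tested when dim genes were left out. Mmp13, the main interstitial collagenase of rodents, and the close copies Mmp1a and Mmp1b, which probes may not tell apart, differed by -0.17 to 0.04, and all 3 had means under 5.

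Of the gelatinases, which digest denatured collagen and basement membrane, Mmp2 rose and Mmp9 was not called. Mmp2, made mainly by mesenchymal cells, lay at 10.23, 10.14, 10.24 and 10.19 in stabilized replicates 1 to 4, against 9.74, 9.92, 9.88 and 9.76 in knockout replicates 1 to 4. The groups were apart, and the spread within each was small beside the gap of 0.37 ± 0.07 (SE; 1.30-fold, limma adjusted p = 0.0032). Mmp9, which neutrophils and macrophages carry, lay at 6.50, 6.43, 6.52 and 6.50 in stabilized replicates 1 to 4, against 6.27, 6.16, 6.46 and 6.11 in knockout replicates 1 to 4. Knockout replicate 3 reached the range of the stabilized lungs. Its difference of 0.24 ± 0.08 (SE, limma adjusted p = 0.077) did not pass. It passed without knockout replicate 3 (adjusted p = 0.024) and after centring the arrays (adjusted p = 0.042).

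The stromelysins, matrilysin and elastase went both ways, with Mmp12 and Mmp11 higher and Mmp3 lower in stabilized lungs. Mmp12, the macrophage elastase, lay at 7.26, 7.02, 7.85 and 7.15 in stabilized replicates 1 to 4, against 6.75, 6.29, 6.34 and 6.20 in knockout replicates 1 to 4. Stabilized replicate 3 was the highest and knockout replicate 1 came nearest to the other group, but the groups did not overlap. The difference of 0.92 ± 0.16 (SE; 1.89-fold, limma adjusted p = 0.0037) was the widest measured increase of any member, though that of the dim Mmp8 may be compressed. Without stabilized replicate 3 it was 0.74.

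Mmp3, stromelysin-1, which degrades proteoglycans and laminin and activates other MMP zymogens, lay at 5.22, 4.96, 5.25 and 5.58 in stabilized replicates 1 to 4. In knockout replicates 1 to 4 it lay at 6.24, 6.20, 5.88 and 6.19. Every stabilized lung was below every knockout lung. It fell by 0.87 ± 0.12 (SE), or 1.83-fold, with a limma adjusted p = 6.7e-04. Mmp10, stromelysin-2 and a neighbour of Mmp3 with similar substrates, was among the members not called, with a mean of 4.90 that lay under 5.

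Mmp11, stromelysin-3, which furin activates inside the cell, lay at 8.30, 8.10, 8.21 and 8.04 in stabilized replicates 1 to 4, against 7.86, 7.84, 7.82 and 7.93 in knockout replicates 1 to 4. The groups did not overlap, and the difference was 0.30 ± 0.07 (SE, limma adjusted p = 0.018). That call was lost without stabilized replicate 1 and without knockout replicate 2 or 3 (highest adjusted p = 0.064). Mmp7, matrilysin, lay at 4.56, 4.27, 4.58 and 4.73 in stabilized replicates 1 to 4, against 4.46, 4.37, 4.42 and 4.47 in knockout replicates 1 to 4. Both groups were dim and overlapped. The difference of 0.11 ± 0.09 (SE, limma adjusted p = 0.49) had a 95% interval of -0.08 to 0.30.

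No membrane-type MMP was called by limma, with 2 of the 5 at an unadjusted p under 0.05, which 24.7% of all genes reached. Mmp14, the membrane-bound protease that activates pro-Mmp2 together with Timp2, lay at 9.58, 9.43, 9.24 and 9.49 in stabilized replicates 1 to 4, against 9.04, 9.34, 9.11 and 9.20 in knockout replicates 1 to 4. The groups overlapped through stabilized replicate 3 and knockout replicate 2. The difference was 0.26 ± 0.09 (SE, limma adjusted p = 0.085), which passed without stabilized replicate 3 (adjusted p = 0.036), after centring (adjusted p = 0.040) and with a trended, robust prior (adjusted p = 0.049). Mmp16, Mmp17, Mmp24 and Mmp25 completed the group, whose differences ranged from -0.23 to 0.26. Mmp25, picked once its values were known, had the lowest, at -0.23 ± 0.08 (SE, limma adjusted p = 0.077). It passed without stabilized replicate 3.

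Among the other MMPs, Mmp19 rose and 5 were not called. Mmp19, a secreted MMP that cleaves basement membrane proteins, lay at 7.33, 7.35, 7.38 and 7.34 in stabilized replicates 1 to 4, against 6.99, 6.88, 6.70 and 6.72 in knockout replicates 1 to 4. The stabilized lungs were nearly identical to each other and all above the knockout lungs. The difference was 0.53 ± 0.07 (SE; 1.44-fold, limma adjusted p = 7.3e-04). Mmp23 averaged 6.07 ± 0.16 in stabilized and 5.80 ± 0.16 in knockout lungs, and Mmp27 averaged 4.90 ± 0.18 in stabilized lungs and 4.65 ± 0.04 in knockout lungs (SD, n = 4 each). Neither was called (adjusted p = 0.10 and 0.096, limma), although the groups of Mmp23 did not overlap, and Mmp27 passed without stabilized replicate 4 (adjusted p = 0.025). Mmp20, the enamel protease of teeth, Mmp21 and Mmp28 lay between -0.14 and 0.05.

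**Figure D2:**
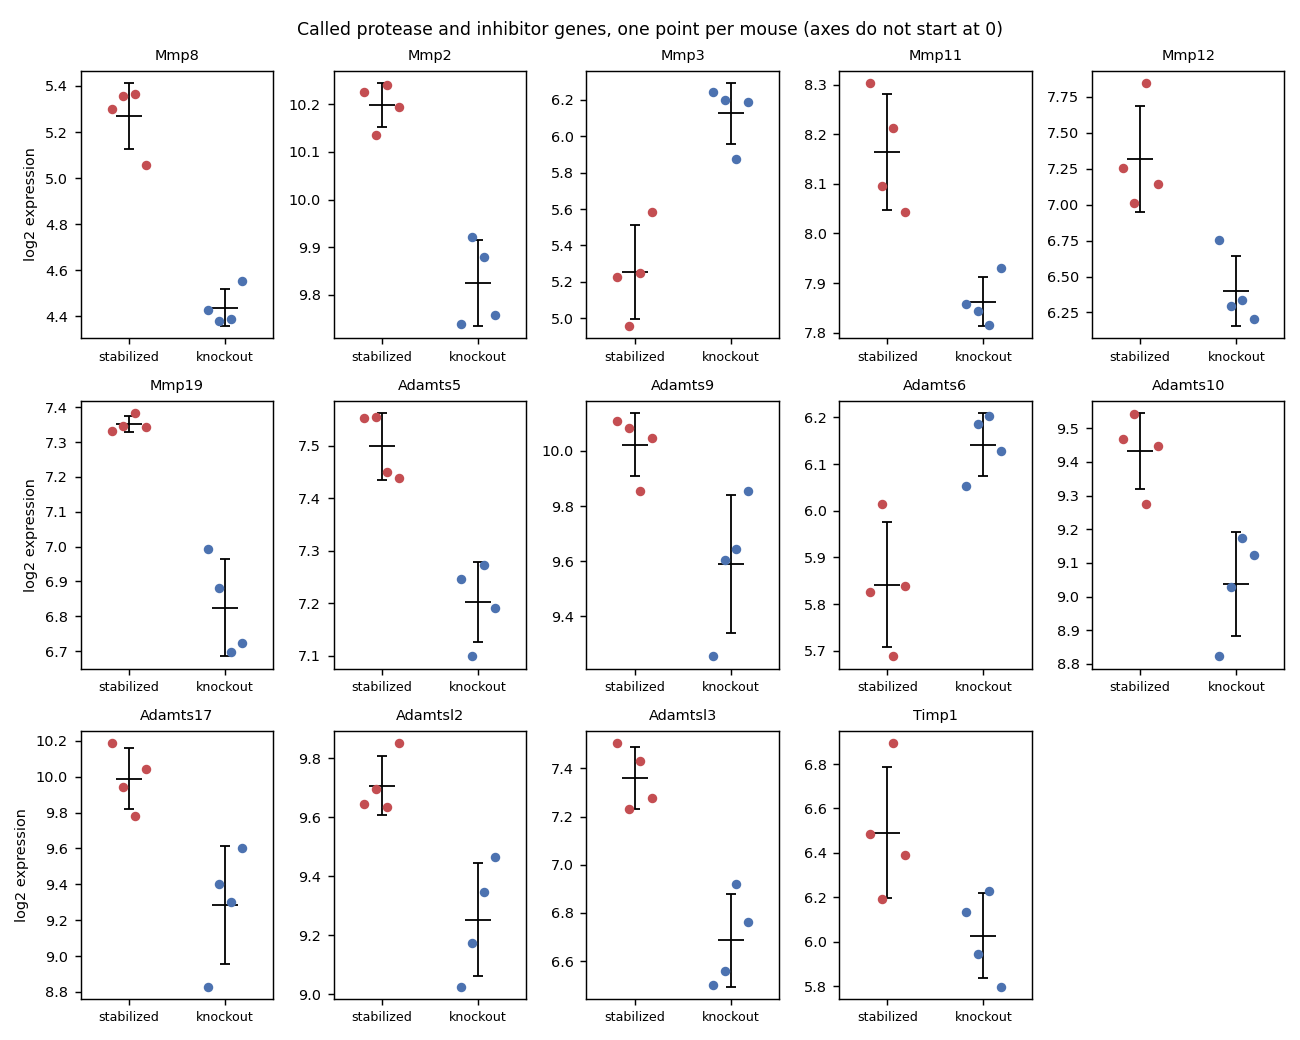
Log2 expression of the 14 called genes, with a point per mouse, a horizontal line for the mean and a bar for the SD (n = 4 per group). The groups are apart in all panels except those of Adamts9 and Timp1, and Mmp3 and Adamts6 are the panels with the stabilized lungs below.

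Of the 7 proteoglycan-cleaving ADAMTS proteases, Adamts5 and Adamts9 rose and 5 were not called. Adamts5, an aggrecanase that also cuts versican, lay at 7.55, 7.55, 7.45 and 7.44 in stabilized replicates 1 to 4, against 7.25, 7.10, 7.27 and 7.19 in knockout replicates 1 to 4. The groups did not overlap, and the difference was 0.30 ± 0.06 (SE; 1.23-fold, limma adjusted p = 0.013). Adamts9, a versican-cleaving protease, lay at 10.11, 10.08, 9.85 and 10.05 in stabilized replicates 1 to 4, against 9.26, 9.60, 9.64 and 9.86 in knockout replicates 1 to 4. Stabilized replicate 3 and knockout replicate 4 met at nearly the same level. The difference was 0.43 ± 0.11 (SE, limma adjusted p = 0.028). The call was lost without stabilized replicate 1, 2 or 4 or knockout replicate 2 or 3 (highest adjusted p = 0.085).

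Adamts1 is the direct neighbour of Adamts5 on chromosome 16 and shares substrates with it. It lay at 10.01, 10.12, 9.90 and 10.10 in stabilized replicates 1 to 4, against 9.67, 10.02, 10.03 and 10.04 in knockout replicates 1 to 4. Apart from the low knockout replicate 1, the knockout lungs lay within the range of the stabilized lungs. The difference was 0.09 ± 0.09 (SE, limma adjusted p = 0.56, 95% interval -0.10 to 0.29). Without knockout replicate 1 it was 0.0044. Adamts15, next to Adamts8 on chromosome 9, had a difference of 0.37 ± 0.17 (SE, limma adjusted p = 0.20) with wide spread in both groups, at 8.33 ± 0.31 in stabilized and 7.96 ± 0.32 in knockout lungs (SD). Adamts20 averaged 4.71 ± 0.10 in stabilized and 4.97 ± 0.19 in knockout lungs (SD, limma adjusted p = 0.12). Adamts4 and Adamts8 were likewise not called.

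The procollagen-processing enzymes Adamts3 and Adamts14, which remove the amino-terminal propeptide of fibrillar collagens, were not called by limma. Their differences were 0.10 and -0.14, and neither reached an unadjusted p under 0.05.

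Among the remaining 9 ADAMTS proteases, Adamts17 and Adamts10 rose and Adamts6 fell. In humans ADAMTS17 and ADAMTS10 are mutated in Weill-Marchesani-type syndromes of short stature and dislocated lenses, and both proteins associate with fibrillin microfibrils. Adamts17 lay at 10.19, 9.94, 9.78 and 10.04 in stabilized replicates 1 to 4, against 8.83, 9.40, 9.30 and 9.60 in knockout replicates 1 to 4. The lowest stabilized lung was above the highest knockout lung, and the difference was 0.70 ± 0.14 (SE; 1.63-fold, limma adjusted p = 0.0073). Adamts10 lay at 9.47, 9.54, 9.27 and 9.45 in stabilized replicates 1 to 4, against 8.82, 9.03, 9.17 and 9.12 in knockout replicates 1 to 4. Again the groups were apart, by 0.40 ± 0.09 (SE; 1.32-fold, limma adjusted p = 0.013).

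Adamts6, the closest relative of Adamts10, went the other way. It lay at 5.83, 6.01, 5.69 and 5.84 in stabilized replicates 1 to 4, against 6.05, 6.19, 6.20 and 6.13 in knockout replicates 1 to 4. The groups were narrowly apart, and it fell by 0.30 ± 0.08 (SE, limma adjusted p = 0.027). The call held only without stabilized replicate 2 or knockout replicate 1, and was lost without any of the 6 others (highest adjusted p = 0.082). Adamts12 averaged 7.72 ± 0.17 in stabilized and 7.46 ± 0.11 in knockout lungs (SD), which did not pass (limma adjusted p = 0.090) but did without stabilized replicate 3 (adjusted p = 0.030) or after centring (adjusted p = 0.046). Adamts7, Adamts13, the protease of von Willebrand factor, and Adamts16, Adamts18 and Adamts19 were not called, with the lowest difference at -0.20 for Adamts18.

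**Figure D3:**
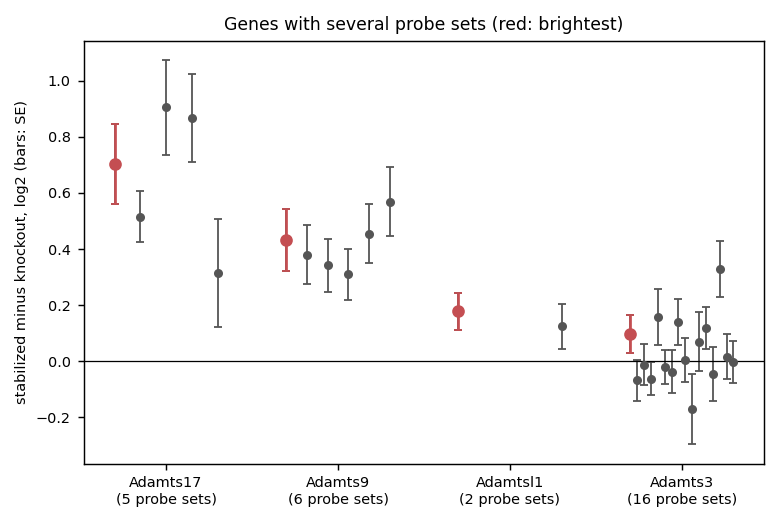
Difference in log2 expression, stabilized minus knockout, for each probe set of the 4 genes that had more than 1, ordered from brightest (red) to dimmest, with standard errors. All 5 probe sets of Adamts17 and all 6 of Adamts9 are above 0, whereas the 16 of Adamts3 scatter around 0.

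Only 4 members had more than 1 probe set, and these were fitted again with each of the 21640 probe sets of a single gene tested separately. The 5 probe sets of Adamts17 differed by 0.31 to 0.90, and 4 of them were called higher. Those of Adamts9 differed by 0.31 to 0.57, with 5 of 6 called higher. Of the 16 probe sets of Adamts3, 8 were positive and 0 called by limma, with a range of -0.17 to 0.33, and both probe sets of Adamtsl1 were positive and not called. The other 45 members rest on 1 probe set each, so no second reading on the array checks them.

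Of the 5 ADAMTS-like genes, Adamtsl2 and Adamtsl3 rose. Adamtsl2, mutated in human geleophysic dysplasia and a binding partner of fibrillin and latent TGF-beta binding protein, lay at 9.64, 9.70, 9.63 and 9.85 in stabilized replicates 1 to 4, against 9.03, 9.17, 9.35 and 9.47 in knockout replicates 1 to 4. The groups did not overlap, and the difference was 0.45 ± 0.09 (SE; 1.37-fold, limma adjusted p = 0.0091). Adamtsl3, a secreted matrix protein also called punctin-2, lay at 7.50, 7.23, 7.43 and 7.28 in stabilized replicates 1 to 4, against 6.50, 6.56, 6.92 and 6.76 in knockout replicates 1 to 4. It too was separated by group, with a difference of 0.67 ± 0.10 (SE; 1.60-fold, limma adjusted p = 9.4e-04). Adamtsl1, Adamtsl4 and Adamtsl5 were not called, with differences between -0.18 and 0.18.

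Of the 4 inhibitors, Timp1 rose and 3 were not called. Timp1, a soluble inhibitor that is readily induced by inflammation and growth factors, lay at 6.49, 6.19, 6.89 and 6.39 in stabilized replicates 1 to 4, against 6.13, 5.95, 6.23 and 5.80 in knockout replicates 1 to 4. Stabilized replicate 2 lay below knockout replicate 3, and stabilized replicate 3 stood highest. The difference of 0.46 ± 0.13 (SE) was just past the threshold (limma adjusted p = 0.049), and it did not hold when any 1 of 7 arrays was dropped, stabilized replicate 2 being the exception (highest adjusted p = 0.12). Timp1 lies on the X chromosome, and with Xist as a covariate the difference was 0.47 with an adjusted p = 0.059.

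Timp2, which both inhibits Mmp2 and helps its activation, lay at 10.66, 10.52, 10.70 and 10.55 in stabilized replicates 1 to 4, against 10.53, 10.53, 10.64 and 10.56 in knockout replicates 1 to 4. Timp3, the matrix-bound inhibitor of MMPs, Adam17 and aggrecanases, lay at 11.06, 11.02, 11.26 and 11.21 in stabilized replicates 1 to 4, against 11.06, 10.94, 11.19 and 11.11 in knockout replicates 1 to 4. For both the groups overlapped. Timp2 differed by 0.04 ± 0.06 (SE, limma adjusted p = 0.74, 95% interval -0.10 to 0.18) and Timp3 by 0.06 ± 0.08 (SE, limma adjusted p = 0.67, 95% interval -0.11 to 0.23). Timp4 averaged 5.05 ± 0.16 in stabilized lungs and 5.25 ± 0.18 in knockout lungs (SD, n = 4 each), a difference of -0.19 that was not called (limma adjusted p = 0.26).

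**Figure D4:**
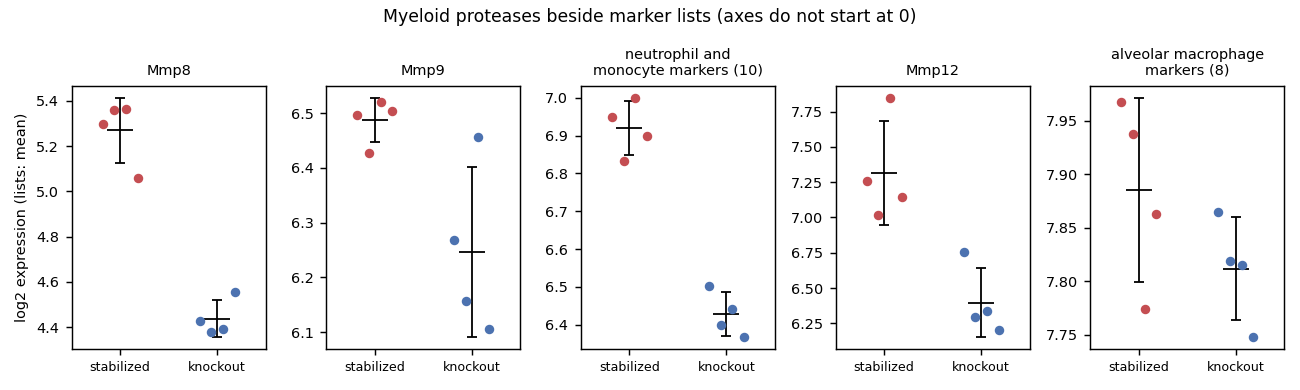
Log2 expression of Mmp8, Mmp9 and Mmp12 and the mean log2 level of 10 neutrophil and monocyte markers and 8 alveolar macrophage markers, with a point per mouse, the mean and the SD (n = 4 per group). The neutrophil and monocyte markers separate the groups as Mmp8 does, while the macrophage markers overlap.

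Markers of cells that carry MMPs were read beside these genes. Of 10 neutrophil and monocyte markers, 5 rose and 0 fell, with a median difference of 0.60. Among them Hdc, which makes histamine, rose by 0.87 ± 0.11 and the alarmin S100a9 by 0.72 ± 0.09 (SE). The mean level of the list lay between 6.83 and 7.0 in stabilized lungs and between 6.37 and 6.50 in knockout lungs, and 2 of the markers had means under 5. The 5 markers not called, named once their values were known, were Retnlg, Ccr2, Lcn2, Ngp and Camp. Their differences lay between -0.13 for Camp and 0.60 for Lcn2. Between the groups the mean level of the list moved with Mmp8, the neutrophil collagenase, though not every marker did. Nor did every MMP move with the list. Mmp9 differed by 0.24 and Mmp25, named once its values were known, by -0.23, and neither was called. Within the groups, stabilized replicate 3 was the highest for both, at 7.0 for the list and 5.36 for Mmp8. Stabilized replicate 2 was the lowest of its group for the list at 6.83 and among the highest for Mmp8 at 5.36. Knockout replicate 4 was the lowest for the list at 6.37 and the highest for Mmp8 at 4.56. The dim Mmp8 spanned only 5.06 to 5.36 in stabilized and 4.38 to 4.56 in knockout lungs. The part of these cells in the Mmp8 result was not tested. Of 8 alveolar macrophage markers only Mrc1 rose, by 0.43 ± 0.09 (SE), and the list lay between 7.77 and 7.97 in stabilized lungs and between 7.75 and 7.86 in knockout lungs. Its median difference was 0.08, and the part of these cells in the Mmp12 result was not tested.

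The fibroblast and mesothelial lists lay slightly higher in stabilized lungs, without overlap. Of 10 fibroblast markers 3 rose and 0 fell, led by the mesenchymal transcription factor Tcf21 and the receptor Pdgfra at 0.64 ± 0.11 and 0.33 ± 0.06 (SE). The other 7 were not called. Of all 10 differences 8 were positive and 2 negative, Col1a1 at -0.16 and Dcn at -0.14, both named once their values were known. The mean level of the list lay between 9.95 and 10.07 in stabilized lungs and between 9.80 and 9.89 in knockout lungs. Of 8 mesothelial markers 4 rose, among them Upk1b by 0.98 ± 0.07 and Msln by 0.45 ± 0.07 (SE), and the list lay between 7.91 and 7.93 in stabilized lungs and between 7.59 and 7.63 in knockout lungs. Of 10 smooth muscle markers 0 rose and 1 fell. No endothelial marker was called by limma, with 1 of 10 at an unadjusted p under 0.05. Alveolar type 2 cell markers were higher as well, with 7 of 10 called, 0 lower, and a list level between 11.20 and 11.37 in stabilized lungs and between 10.96 and 11.07 in knockout lungs. Of 10 type 1 cell markers 1 rose, and that list lay between 10.53 and 10.63 in stabilized lungs and between 10.44 and 10.52 in knockout lungs. The part of any of these cells in the differences of Mmp2, Adamts5, Adamts9, Adamts10, Adamts17, Adamtsl2 and Adamtsl3 was not tested.

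**Figure D5:**
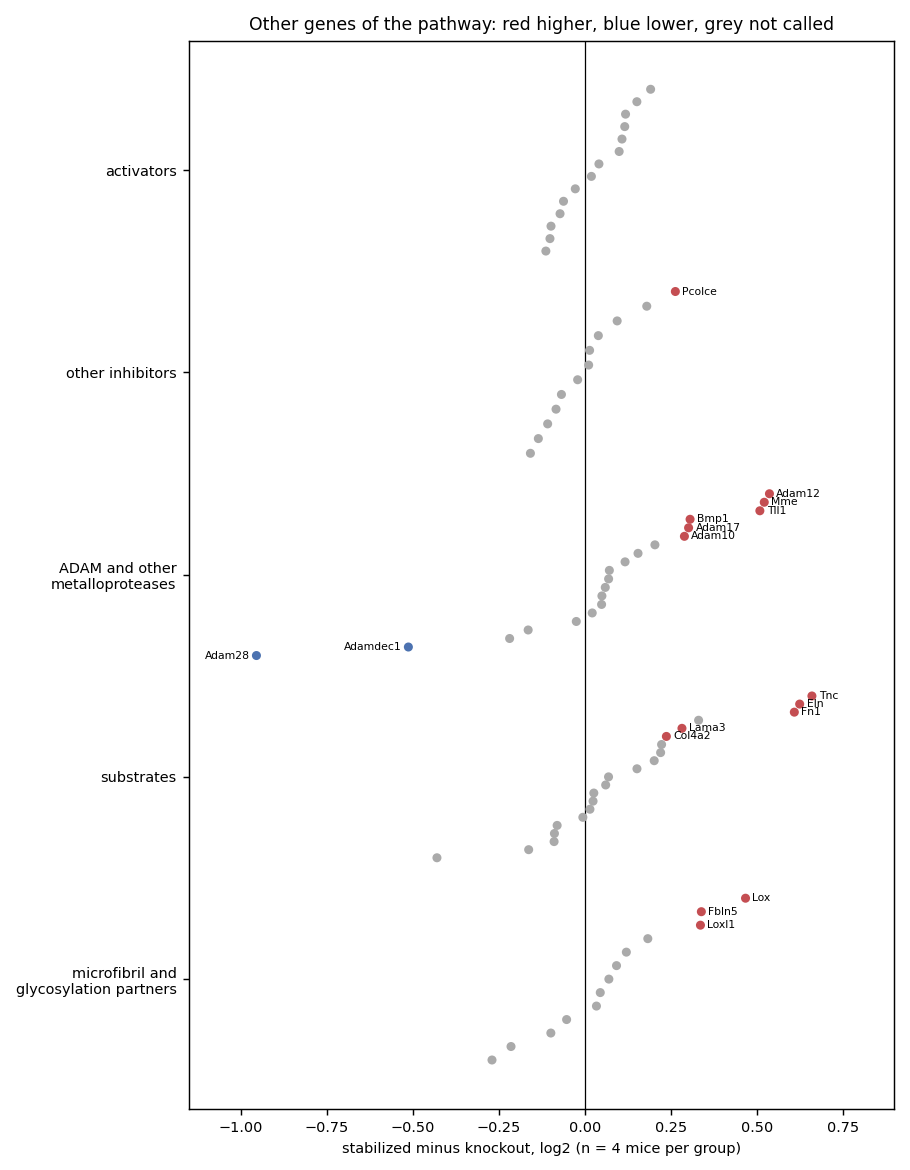
Difference in log2 expression, stabilized minus knockout, for 80 other genes of the pathway in 5 lists, with a point per gene (n = 4 mice per group, called genes named). The 15 red points are called higher and the 2 blue points, Adam28 and Adamdec1, are called lower.

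Genes that work with the proteases were read from 5 lists of 87 genes, of which 80 were measured and 17 called (21.2%, against 9.62% of all genes), 15 higher and 2 lower. Of 14 activators of protease zymogens, among them Furin and the plasminogen activators, none was called by limma, and 1 had an unadjusted p under 0.05. The highest difference in that list was 0.19. Of 12 other inhibitors and regulators only Pcolce, which enhances procollagen processing, rose, by 0.26 ± 0.08 (SE, limma adjusted p = 0.049). The count for that list was 0 with Xist as a covariate, 0 with the replicate number as a block and 0 in 7 of the 8 fits with an array left out. It was 2 after centring and 2 with a trended, robust prior.

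Of 20 ADAM and other extracellular metalloproteases, 6 rose and 2 fell. Adam28, an ADAM that lymphocytes carry, averaged 5.58 ± 0.11 in stabilized lungs and 6.54 ± 0.07 in knockout lungs (SD, n = 4 each), and it fell by 0.95 ± 0.07 (SE). Adamdec1, an ADAM-like protease of myeloid and stromal cells, fell by 0.51 ± 0.10 (SE). Adam12, an ADAM of mesenchymal cells, rose by 0.54 ± 0.10, and Mme, the peptidase neprilysin, rose by 0.52 ± 0.10 (SE). Those that follow were picked once their values were known. The procollagen and pro-lysyl oxidase processing enzymes Bmp1 and Tll1 rose by 0.31 and 0.51, and the sheddases Adam10 and Adam17 by 0.29 and 0.30. Without stabilized replicate 1 the list had 5 calls.

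Of 21 substrates 5 rose and 0 fell. Elastin (Eln) averaged 11.94 ± 0.16 in stabilized lungs and 11.31 ± 0.32 in knockout lungs (SD, n = 4 each), a difference of 0.62 ± 0.14 (SE, limma adjusted p = 0.013). Fibronectin (Fn1) rose by 0.61 ± 0.08, tenascin C (Tnc) by 0.66 ± 0.12 and the laminin chain Lama3 by 0.28 ± 0.07 (SE). Col4a2, picked once its values were known, differed by 0.24 ± 0.07 (SE), and the fibrillar collagen genes Col1a1, Col1a2 and Col3a1 were not called. The count was 3 after repeated quantile normalization, 8 with a trended, robust prior, and 3 to 6 with an array left out, the lowest without stabilized replicate 1 or knockout replicate 3. Of 13 microfibril and glycosylation partners of the ADAMTS-like proteins 3 rose and 0 fell, namely the crosslinking enzymes Lox and Loxl1, by 0.47 ± 0.08 and 0.34 ± 0.08, and fibulin-5 (Fbln5), by 0.34 ± 0.07 (SE). With the trended, robust prior 5 of that list were called.

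Single arrays stood out across the members. Within the stabilized group replicate 3 was the highest for 20 of the 49 members (40.8%, against 24.6% of all genes) and replicate 2 the lowest for 23 (46.9%, against 38.9%). Within the knockout group replicate 1 was the lowest for 24 (49%, against 27.5% of all genes), among them Adamts9, Adamts10, Adamts17, Adamtsl2 and Adamtsl3. Knockout replicate 3 was instead the highest of its group for 17 members (34.7%, against 21.5% of all genes). It was the lowest for 9 (18.4%, against 26%). Markers of cardiac and skeletal muscle lay at 8.11 in knockout replicate 1 and 8.16 in knockout replicate 3, and at 7.69 in both others. In stabilized lungs they lay lower, between 7.44 and 7.57, and 3 of the 10 markers were called lower. The part of these muscle cells in the values of the members was not tested. Without knockout replicate 1, 13 members were called, and Timp1 was the one lost.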

How the data were processed

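Per the submitters' processing notes, the authors processed the arrays with RMA and the affy package, and they deposited log2 expression values for 34760 probe sets and 8 arrays. Neither versions nor a genome build are given in the sources used here. RMA corrects background, quantile normalizes and summarises probes by median polish, which would hide a change in total RNA and compresses differences of dim genes. Array medians lay between 5.97 and 6.03, and the precision is limited by 4 arrays per group. Platform annotation gave 21640 probe sets 1 symbol and 1321 several, and 11799 had none. All 49 members matched the RefSeq gene table.

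The fit used limma 3.58.1 in R 4.3.3 (lmFit, eBayes) on all 8 arrays with no covariate. SE is limma's moderated standard error. Alternatives were a filter at a mean of 5, centring, repeated quantile normalization, a trended and robust prior, the mean of probe sets, the replicate number as a block, Xist as a covariate, and each array left out. Called members, Timp1 to Timp4, Mmp2, Mmp7, Mmp9, Mmp12, Mmp14, Adamts1 and the 6 widest differences not called are given with values. Genes outside this rule are marked. Beside the members stand up to 4 called genes of each pathway list and up to 2 of each marker list. Members and lists were chosen with earlier results of these data known.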

Additional observations from a re-analysis of the deposited data

Results flagged for a closer look

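Every member and marker list was checked for an array far from the other 3 of its group, in 126 groups of 4 arrays, of which chance alone would mark about 5%. Adamts1 in knockout replicate 1 lay at 9.67, below the others at 10.02 to 10.04. Mmp3 in knockout replicate 3 lay at 5.88, below the others at 6.19 to 6.24, and it was still above all stabilized lungs.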

How the results depend on the processing

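Under the 7 alternatives that kept all arrays, 13 to 17 members were called, against 14, and 1717 to 2321 of all genes, against 1917. No difference of a named member turned its sign in any of them. Of 178 such values 173 stayed on their side of the threshold, 1 lost its call (Timp1 with Xist as a covariate) and 4 gained one (Mmp9, Adamts12 and Mmp14 after centring, and Mmp14 with the trended prior). The filter on dim genes left 38 members, with Mmp8 not tested. With an array left out, 10 to 15 members were called, 9 to 13 higher and 1 to 2 lower, while all genes called ranged from 1216 (without stabilized replicate 1) and 1235 (without knockout replicate 3) to 1839, and pathway genes from 10 to 17. The members called in all 8 of these fits were 10: Mmp2, Mmp3, Mmp8, Mmp12, Mmp19, Adamts5, Adamts10, Adamts17, Adamtsl2 and Adamtsl3. Same-numbered arrays of the groups correlated at -0.01 to 0.08 in their deviations from the group means. Of 8 arrays, 2 correlated best with their own number. With so few arrays this does not settle whether the numbers pair the mice. With the replicate block 14 members and 1828 genes were called. Which cause lay behind a lost call was not tested.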
